A study of Mus musculus with 4 samples.

Results

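The transcription factors *Atoh1*, *Pou4f3*, *Gfi1*, *Lhx3* and *Barhl1*, which act in the fate and survival of hair cells, were followed in cochleas that had lost *Meis2*. A member was any probe set (the group of short array probes that reads a transcript) whose single gene symbol was one of these names. This gave 5 probe sets, 1 for each of the 5 genes, of 19938 genes with a single symbol on the array. RNA came from whole cochleas of *Meis2* flox/flox; *Pax2* Cre/+ mutant embryos (replicates 1 and 2) and of wild-type embryos (replicates 2 and 3), all at embryonic day 15, and each sample was hybridized to a Mouse Gene ST array. Recombination was driven by a *Pax2*-Cre transgene, which works in the ear epithelium from the placode stage onward, so the periotic mesenchyme in a whole cochlea lies outside its main domain. The labels call the control embryos wild type and do not say whether they carried a floxed or Cre allele.

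Hair cells are the mechanosensory cells of the organ of Corti, and they arise from a prosensory domain marked by *Sox2*. *Atoh1*, a basic helix-loop-helix factor, is needed for hair cells to form and is held back in neighboring supporting cells by Notch signaling and its Hes and Hey repressors. The POU homeodomain factor *Pou4f3*, the zinc finger repressor *Gfi1* and the homeodomain factor *Barhl1* act after *Atoh1* in the differentiation and upkeep of hair cells. The LIM homeodomain factor *Lhx3* is expressed in hair cells and also in the pituitary and in motor neurons. In the rest of the embryo *Atoh1* and *Barhl1* are known from the cerebellar granule lineage and *Gfi1* from blood cells. Since whole cochleas were measured, more or fewer hair cells and a higher or lower level in each hair cell cannot be told apart in any value below.

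*Lhx3* was the one factor of the 5 that passed the test with all 4 arrays, a call that ended in 5 of 12 alternatives, among them the loss of any single array. It was 1.34-fold higher in mutants (95% confidence interval 1.13 to 1.58), while *Atoh1*, *Gfi1*, *Pou4f3* and *Barhl1* had estimates from 1.04- to 1.20-fold whose intervals all included no change and which are not shown to be equal between genotypes. Significance analysis of microarrays (SAM), a permutation method, called 4 of the 5 higher, all but *Barhl1*, and also 25446 of 35556 probe sets. Values are log2 signals that the authors computed with robust microarray analysis (RMA), and every difference is the mutant mean less the wild-type mean of these log2 values. Tests used limma, which fits each probe set and steadies its variance with that of the others, and p was adjusted by Benjamini-Hochberg over the 35556 probe sets and called under 0.05. Of the 5 member probe sets, 1 was called higher and 0 were called lower, and 1 had an unadjusted p under 0.05. Among all probe sets 21.6 percent were called higher and 15.7 percent lower in mutants (37.3 percent in either direction), so 1 call among 5 is close to what the array as a whole gave.

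The promoter of *Lhx3* is shown because this is the factor that differed, and that of *Atoh1* because it stands first in the hair cell program. Both are the 250 bases before a RefSeq transcription start (GRCm38.p6), written 5′ to 3′ along the gene.
*Lhx3*, first start, chr2:26208250-26208499, minus strand: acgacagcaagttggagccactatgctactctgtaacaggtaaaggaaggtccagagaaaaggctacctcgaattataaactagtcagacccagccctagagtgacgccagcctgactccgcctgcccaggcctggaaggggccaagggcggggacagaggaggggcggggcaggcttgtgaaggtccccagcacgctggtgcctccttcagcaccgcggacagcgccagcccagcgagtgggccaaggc
*Atoh1*, chr6:64728875-64729124, plus strand: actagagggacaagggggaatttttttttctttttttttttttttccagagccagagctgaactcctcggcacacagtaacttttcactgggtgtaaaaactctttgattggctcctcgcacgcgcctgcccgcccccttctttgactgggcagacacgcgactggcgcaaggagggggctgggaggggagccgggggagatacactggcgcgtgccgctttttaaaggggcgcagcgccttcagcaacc
The windows of 4 members, 7 in all, were searched on both strands for CAGNTG, an E-box of the kind that Atoh1 and related factors bind, and for 3 sequences bound by Meis proteins or by their Pbx and Hox partners, TGACAG, TGATNNAT and AGATNNAT. CAGNTG and TGACAG can overlap by 3 letters. No match to any of the 4 is in the windows printed whole, which is why they hold no capitals. An E-box match (capitals) is in 4 windows, and its neighborhood is shown for each.
*Lhx3*, second start, chr2:26206775-26206800, minus strand: caggggcgagCATCTGtaggaagcct
*Gfi1*, first start, chr5:107725832-107725857, minus strand: ggcgggtcccCACCTGctgcagagca
*Barhl1*, first start, chr2:28916752-28916777, minus strand: ccacgcagccCAGCTGgccctcctcc
*Barhl1*, second start, chr2:28912496-28912520, minus strand: acctcacattCAGCTGaaccctgtc
Of 32851 RefSeq windows of this length, 44.8 percent hold CAGNTG, 15.9 percent TGACAG, 7.68 percent TGATNNAT and 8.17 percent AGATNNAT, and none of the 7 member windows holds any of the last 3. These are matches of letters only, and no binding was measured in these samples. *Pou4f3* is given by its values only.

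*Atoh1* had log2 signals of 8.08 and 8.08 in mutant cochleas, against 7.68 and 7.96 in wild-type cochleas. Both mutant arrays lay above both wild-type arrays, but wild-type replicate 3 was closer to the mutants than to wild-type replicate 2. The means were 8.08 ± 0.0031 in mutants and 7.82 ± 0.20 in wild type (SD, n = 2 each), which differ by 0.27 (SE 0.12, 95% interval -0.04 to 0.57, limma adjusted p = 0.136). The interval includes no change and reaches up to 1.48-fold, so these arrays exclude neither. Of all probe sets, 51.9 percent differed by more than *Atoh1* in either direction.

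**Figure D1:**
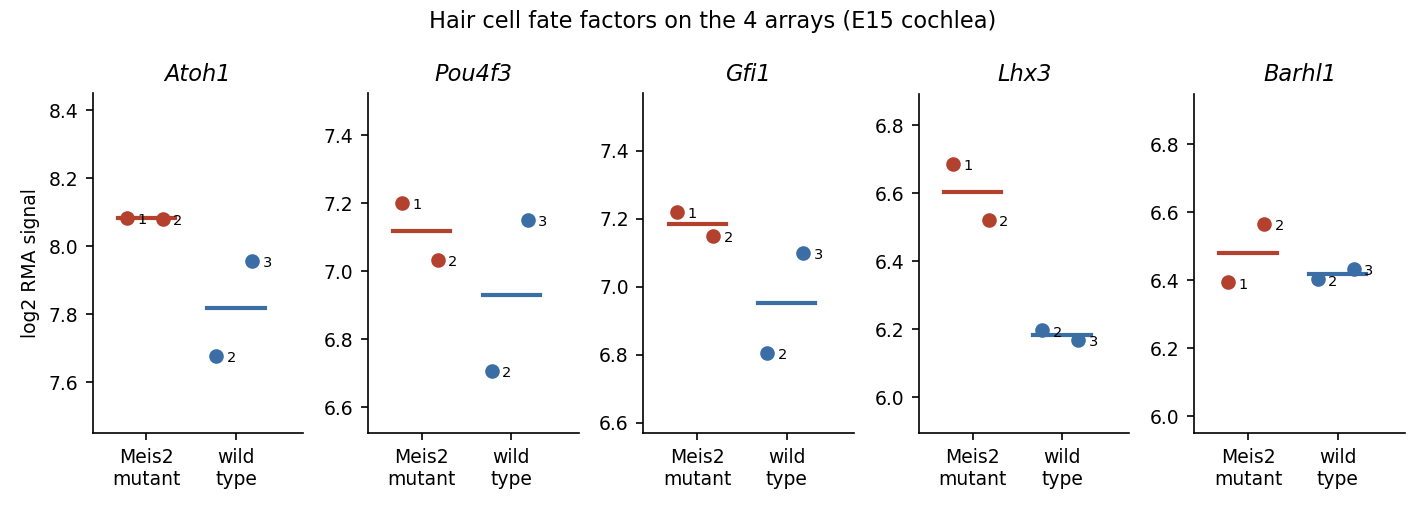
Log2 RMA signal (y axis, each panel spanning 1 unit around its own mean) of the 5 hair cell fate factors in *Meis2* mutant cochleas (red) and wild-type cochleas (blue) at E15. Points are single arrays with their replicate number and lines are the means of 2 arrays; *Lhx3* has the widest gap between the groups, while wild-type replicate 2 lies lowest of the 4 arrays for *Atoh1*, *Pou4f3* and *Gfi1*.

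*Pou4f3*, the POU factor whose loss leads to the death of hair cells in mice, had signals of 7.20 and 7.03 in mutants, against 6.71 and 7.15 in wild type. The groups overlapped, since wild-type replicate 3 was above mutant replicate 2. The means differed by 0.19 (SE 0.17, 95% interval -0.25 to 0.63, limma adjusted p = 0.409), the widest interval of the 5, and it was -0.034 without wild-type replicate 2 and 0.41 without wild-type replicate 3 (adjusted p = 0.851 and 0.0717).

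*Gfi1*, a repressor that in mouse cochleas is switched on after *Pou4f3*, had signals of 7.22 and 7.15 in mutants, against 6.81 and 7.10 in wild type. The groups did not overlap, with a gap of 0.050 between the lower mutant and the higher wild-type array. The means differed by 0.23 (SE 0.12, 95% interval -0.09 to 0.55, limma adjusted p = 0.191), and it was 0.085 without wild-type replicate 2.

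*Lhx3* had signals of 6.69 and 6.52 in mutants, against 6.20 and 6.17 in wild type. The groups did not overlap, and the gap of 0.33 between them was wider than the spread within either genotype (0.165 between the mutant arrays and 0.028 between the wild-type arrays). The means were 6.61 ± 0.12 in mutants and 6.18 ± 0.020 in wild type (SD, n = 2 each), and *Lhx3* rose by 0.42 (SE 0.09, 95% interval 0.18 to 0.66, limma adjusted p = 0.025). Of all probe sets, 32.6 percent differed by more in either direction. The call ended after repeated quantile normalization (0.31, adjusted p = 0.0623) and when any single array was left out, where the difference lay between 0.34 and 0.51. The limma adjusted p was 0.123 without mutant replicate 1, 0.0653 without mutant replicate 2, 0.0593 without wild-type replicate 2 and 0.0714 without wild-type replicate 3.

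*Barhl1*, a Bar-class homeobox gene that mouse hair cells need for their long-term survival, had signals of 6.39 and 6.57 in mutants, against 6.40 and 6.43 in wild type. Both wild-type arrays lay between the mutant arrays. The difference of 0.062 (SE 0.09, 95% interval -0.18 to 0.31, limma adjusted p = 0.623) turned to -0.022 with median scaling, to -0.049 with quantile normalization repeated and to -0.025 without mutant replicate 2.

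**Figure D2:**
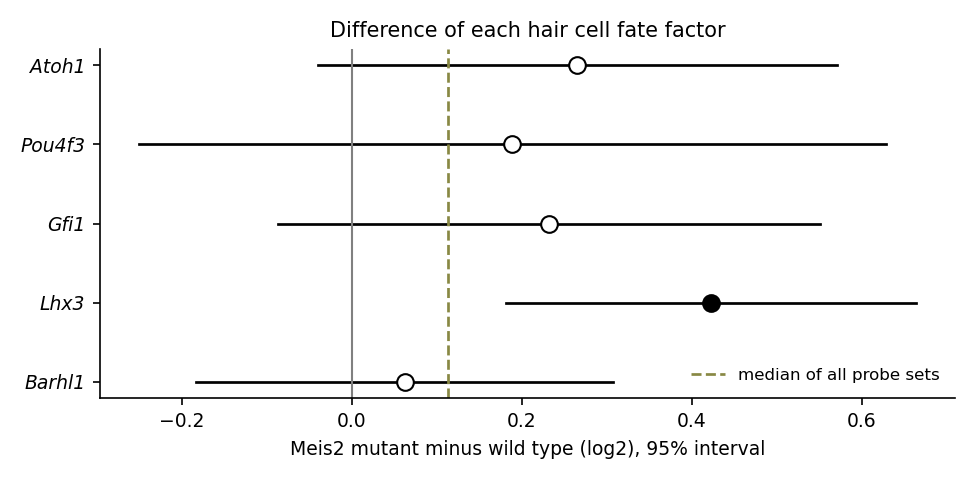
Log2 difference between mutant and wild type (x axis) of each hair cell fate factor (y axis), with 95% confidence intervals from limma (lines). The filled point (*Lhx3*) passed the adjusted threshold and open points did not; the dashed line is the median of all 35556 probe sets (0.11), which lies inside the intervals of *Atoh1*, *Pou4f3*, *Gfi1* and *Barhl1*.

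The arrays as a whole were shifted toward the mutants. The median difference of all probe sets was 0.11, and it shrank to 0.029 when arrays were scaled to one median and to 0.051 with quantile normalization repeated. The median of the 5 factors was 0.23. Relative to each array's own median the differences were 0.18 for *Atoh1*, 0.15 for *Gfi1*, 0.10 for *Pou4f3*, 0.34 for *Lhx3* (adjusted p = 0.0462 from limma) and -0.022 for *Barhl1*. In 3 of the 5 factors both mutant arrays lay above both wild-type arrays, against 49.7 percent of all probe sets, and in the other 2 the groups overlapped. The reverse order held for 26.4 percent of all probe sets and for none of the 5 factors, and 76.1 percent did not overlap in one direction or the other.

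The wild-type arrays differed from each other in *Atoh1*, *Pou4f3* and *Gfi1*. Wild-type replicate 3 exceeded replicate 2 by 0.28 for *Atoh1*, by 0.44 for *Pou4f3* and by 0.29 for *Gfi1*, and 16.7, 6.43 and 15.4 percent of all probe sets had a wider gap between these arrays. For *Lhx3* and *Barhl1* that gap was 0.028 and 0.032, and 86.7 and 85.2 percent of probe sets had a wider one. The wild-type arrays also differed in *Xist*, the RNA of the inactive X chromosome, at 5.54 in replicate 2 and 11.51 in replicate 3, against 11.83 and 11.84 in mutants. The Y-linked gene *Eif2s3y* was at 4.68 and 4.88 in mutants, against 8.76 and 7.77 in wild-type replicates 2 and 3. The arrays thus differ in the sex of the embryos, wild-type replicate 3 carrying both signals, and sex and genotype cannot be told apart here, although all 5 factors lie on autosomes.

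**Figure D3:**
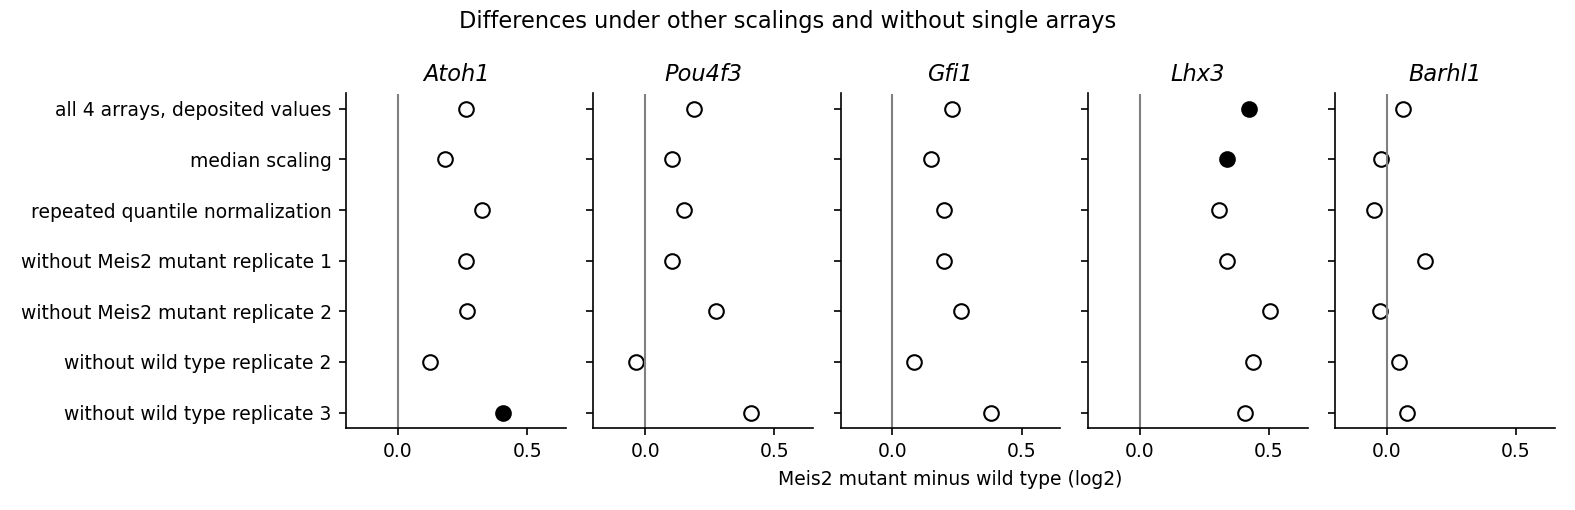
Log2 difference between mutant and wild type (x axis) of each factor with all 4 arrays, after other scalings and without single arrays (y axis). Filled points passed an adjusted p of 0.05 from limma. *Pou4f3* turns to -0.034 without wild-type replicate 2, *Lhx3* stays between 0.31 and 0.51, and *Atoh1* passes the threshold only without wild-type replicate 3 (0.41).

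*Meis2* itself had signals of 9.61 and 9.80 in mutants, against 9.64 and 9.38 in wild type (difference 0.19, adjusted p = 0.284 from limma), and whether its probe set reads the deleted part is not given in the sources used here, so it does not check the genotype. Correlations across probe sets were 0.996 between the mutant arrays, 0.993 between the wild-type arrays and 0.966 to 0.971 between genotypes. As a rough scale for dim signals, 95 percent of 1210 probe sets of olfactory and vomeronasal receptors, most of which a cochlea should not use, had a mean under 5.73, and all 5 factors were above that value on every array. Probe sets differ in brightness, so this is no test of detection and gives no order between genes. Whether the arrays of a genotype hold different embryos or pools is not stated in the labels, so the p-values measure only the spread between these arrays. Their number limits the precision, since each probe set has 2 residual degrees of freedom and the limma prior adds 2.91.

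The other transcription factors of hair cells and the close relatives of the 5 factors gave a mixed picture. Of 17 measured, 6 were higher and 1 was lower, while 10 were not called, a share higher of 35.3 percent against 24.2 percent of all genes and a share lower of 5.88 against 16.2 percent (40.4 percent of all genes in either direction), with a median of 0.18 against 0.13. *Rfx2* and *Rfx1*, RFX factors that act in hair cells of mice, were at 8.18 ± 0.10 and 9.21 ± 0.14 in mutants, against 7.42 ± 0.076 and 8.42 ± 0.079 in wild type (SD, n = 2 each), and rose by 0.76 and 0.79 (adjusted p = 0.00646 and 0.00732 from limma). *Tbx2*, which sets inner against outer hair cell identity, rose by 0.59 (adjusted p = 0.0156 from limma), and the LIM-only protein *Lmo4* fell by 0.45 (adjusted p = 0.0128 from limma). Among the relatives, *Gfi1b* rose by 0.43 (adjusted p = 0.0165 from limma, and 0.0941, 0.0765 and 0.0527 without mutant replicate 1, mutant replicate 2 and wild-type replicate 3), while *Lhx4* had a difference of 0.18, *Pou4f1* of -0.29 and *Barhl2* of 0.14, with adjusted p from 0.204 to 0.338 by limma. *Gfi1b*, *Lhx4*, *Pou4f1* and *Barhl2* are described because they are the measured paralogs of *Gfi1*, *Lhx3*, *Pou4f3* and *Barhl1*.

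Upstream of *Atoh1*, 4 of 13 prosensory factors and partners were higher, 4 were lower and 5 did not pass the test, which is 30.8 percent in each direction, beside 24.2 and 16.2 percent of all genes (median 0.12). *Sox2*, the factor of the prosensory domain, was at 7.85 ± 0.40 in mutants, against 9.79 ± 0.060 in wild type, and fell by 1.94 (adjusted p = 0.00435 from limma). The other markers set for prosensory and supporting cells did not pass the test. *Prox1*, *Lfng* and *Jag1* had differences of 0.025, 0.13 and -0.075 (adjusted p = 0.843, 0.312 and 0.713 from limma). *Cdkn1b*, the cell cycle inhibitor p27 of the postmitotic prosensory domain, fell by 0.89 (adjusted p = 0.00591 from limma). *Pax2* rose by 0.97, and *Tcf3*, which encodes E proteins that pair with Atoh1, rose by 0.57 (adjusted p = 0.0076 and 0.00871 from limma). In the paper Pax2 marks the non-sensory part of the duct, and its stained domain was much smaller in these mutants at an earlier stage. Beside a *Sox2* signal that was lower by 1.94, the *Atoh1* difference was 0.27 with an interval whose lower end was -0.04. Which cells of the whole cochlea the *Sox2* difference comes from was not tested. By Sox2 staining the paper saw a shortened duct in such mutants at an earlier stage, and on sections a prosensory region that was not affected. With myosin VII antibodies it also saw an additional outer hair cell row in the mutant basal turn, and grouped hair cells at the apex. That is protein staining of tissue, while the arrays read RNA of whole cochleas.

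Of 18 Notch ligands, receptors, modulators and repressors of *Atoh1*, 8 were higher, 4 were lower and 6 did not pass the test (44.4 and 22.2 percent, median 0.34). These shares stand beside 24.2 and 16.2 percent of all genes. *Notch2* and *Notch3* rose by 0.60 and 0.79 (adjusted p = 0.00748 and 0.00756 from limma). *Jag2*, a ligand made by hair cells, was at 8.46 and 8.61 in mutants, against 7.90 and 7.91 in wild type, and rose by 0.63 (adjusted p = 0.00837 from limma). *Dll1*, another ligand of nascent hair cells, had a difference of 0.32 at the edge of the threshold (adjusted p = 0.0496 from limma). It was no longer called with median scaling (0.106), quantile normalization repeated (0.155), a trended prior (0.0716), a robust prior (0.0502) and without wild-type replicate 2 or either mutant array (0.138 to 0.194). The 4 that fell are all repressors, namely *Id2*, which keeps basic helix-loop-helix factors from pairing, by 1.47 (adjusted p = 0.0026), *Hey2* by 0.69 (adjusted p = 0.00762), *Hes1* by 0.73 (adjusted p = 0.0156) and *Id1* by 0.49 (adjusted p = 0.0195, all from limma). Other repressors went the other way or were not called: *Hey1* rose by 0.83 and *Heyl* by 0.41 (adjusted p = 0.0114 and 0.0419 from limma), and *Hes5* had a difference of 0.36 (adjusted p = 0.0586 from limma). *Jag2*, *Dll1*, *Hes1*, *Id1*, *Hey1*, *Heyl* and *Hes5* were chosen after their values were seen. Without mutant replicate 2 the adjusted p from limma was 0.0553 for *Jag2*, 0.0753 for *Hes1*, 0.0658 for *Hey1* and 0.073 for *Id1*. The *Id1* call also ended without mutant replicate 1 (0.1) and wild-type replicate 2 (0.0542), and the *Heyl* call ended with any array left out (0.061 to 0.179) and after median scaling (0.0884).

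The list of hair cell effector and marker genes was called at shares near those of all genes. Of 35 measured, 10 were higher, 6 were lower and 19 did not pass the test (28.6 and 17.1 percent, median 0.17). Among all genes 24.2 percent were higher and 16.2 percent lower. After median scaling 4 genes of the list were higher and 6 lower. *Myo7a*, a myosin of the hair bundle, was at 8.25 ± 0.17 in mutants, against 7.09 ± 0.12 in wild type (SD, n = 2 each), a difference of 1.17 (adjusted p = 0.00442 from limma). *Rbm24*, an RNA-binding protein of hair cells, rose by 0.81 (adjusted p = 0.0055 from limma). The calcium-binding protein *Calb1*, which ganglion neurons also make, fell by 0.96, and *Rprm* fell by 0.61 (adjusted p = 0.00367 and 0.0105 from limma). Of other genes in this list, *Myo6* fell by 0.64 and *Pvalb* by 0.98 (adjusted p = 0.0135 and 0.0108 from limma). *Pcp4* had a difference of -0.54 (adjusted p = 0.0876 from limma). *Cdh23*, *Espn* and *Otof* rose by 0.47, 0.46 and 0.43 (adjusted p = 0.0308, 0.0366 and 0.0438 from limma). *Myo6*, *Pvalb*, *Pcp4*, *Cdh23*, *Espn* and *Otof* were chosen after their values were seen. Averaged over the 35 genes the signal was 6.91 and 6.98 in mutants, against 6.79 and 6.90 in wild-type replicates 2 and 3, so that wild-type replicate 2 was again lowest.

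**Figure D4:**
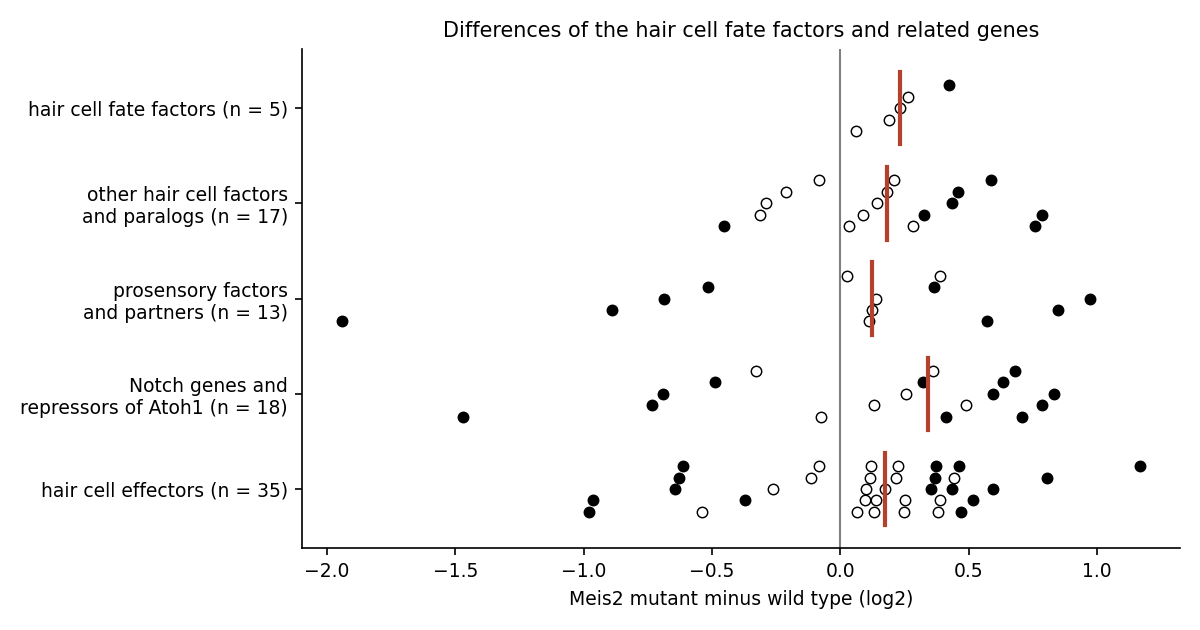
Log2 difference between mutant and wild type (x axis) of the hair cell fate factors and 4 lists of related genes (y axis, with the number measured). Each point is a gene at its brightest probe set, filled where the adjusted p from limma was under 0.05, and red bars are list medians, from 0.12 to 0.34; the 5 fate factors span 0.062 to 0.42, inside the range of every other list.

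Of the 16 named genes with the smallest p in these 4 lists, 9 kept an adjusted p under 0.05 without each array in turn. The exceptions were *Lmo4* and *Tbx2* (up to 0.0755 and 0.0875 without either mutant array), *Tcf3* (0.0616), *Hey2* (0.053), *Rprm* (0.0635) and *Notch3* (0.0501) without mutant replicate 2, and *Notch2* (0.0508) without mutant replicate 1. No call of the 16 was lost under either rescaling of the arrays.

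Markers of the other cells known to express these factors were measured on the same arrays, and their counts stand beside 24.2 percent of all genes called higher and 16.2 percent called lower. Of 7 motor neuron genes, where *Lhx3* is also known, 4 were higher and 0 lower, with mean signals of 6.58 and 6.66 in mutants, against 6.36 and 6.42 in wild type, and *Olig1* and *Slc18a3* rose by 0.49 and 0.50 (adjusted p = 0.0124 and 0.0205 from limma, up to 0.0807 and 0.105 without single arrays). The defining motor neuron factor *Mnx1* was at 5.03 and 5.10 in mutants, against 4.86 and 5.03 in wild type, and *Slc5a7* and *Isl2* had differences of -0.21 and -0.23 (adjusted p = 0.0967 and 0.115 from limma). *Mnx1*, *Slc5a7* and *Isl2* were chosen after their values were seen. Of 9 measured pituitary genes 3 were higher (33.3 percent) and 0 lower, with mean signals of 5.72 and 5.71 in mutants, against 5.44 and 5.49 in wild type, and the hormone subunits *Cga* and *Lhb* rose by 0.49 and 0.42 (adjusted p = 0.0111 and 0.0156 from limma, up to 0.0704 and 0.0881 without single arrays). *Cga* (means 4.99 in mutants and 4.50 in wild type) and *Mnx1* lay under 5.73 on every array. That is the value under which 95 percent of receptor probe sets had their mean, so both signals are near background on that rough scale. The part of these 4 of 7 and 3 of 9 genes in the *Lhx3* difference was not tested. In each list 0 genes were called higher without mutant replicate 1, and 0 without mutant replicate 2.

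Of 14 hindbrain and cerebellar genes 2 were higher and 0 lower, with means of 6.59 and 6.62 in mutants, against 6.46 and 6.49 in wild type, and *Zic1* and *Hoxb1* rose by 0.29 each (adjusted p = 0.0412 and 0.0456 from limma), calls that ended when any single array was left out (up to 0.177 and 0.187) and after median scaling (0.0998 and 0.12). The *Hoxb1* call also ended with quantile normalization repeated (0.0656) and a trended prior (0.0776). Of 13 myeloid and lymphoid genes 5 were higher and 0 lower, with means of 6.81 and 6.69 in mutants, against 6.52 and 6.65 in wild type, and *Cd68* and *Csf3r* rose by 0.62 and 0.71 (adjusted p = 0.00707 and 0.0108 from limma, and 0.0599 for *Csf3r* without mutant replicate 1). The macrophage markers *Adgre1* and *Csf1r* and the leukocyte markers *Ptprc* and *Cx3cr1*, chosen after their values were seen, had differences of -0.52, -0.48, -0.17 and -0.13 (adjusted p from 0.111 to 0.593 by limma). The list had 3 genes called lower without wild-type replicate 2, 3 higher after median scaling and 1 higher without mutant replicate 1. Of 6 Merkel and gut secretory genes 2 were higher and 1 lower, with *Piezo2*, which rose by 0.70, and *Chgb*, which fell by 0.69 (adjusted p = 0.00634 and 0.00539 from limma). The mean over the probe sets of *Piezo2* differed by 0.195 (adjusted p = 0.108), which left 1 gene higher.

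Cochlear tissue was present on all arrays, with the otoconial and duct protein *Oc90* at 12.73 and 12.73 in mutants, against 12.88 and 12.83 in wild type, a gene chosen after its values were seen. The counts with all 4 arrays in the lists that follow stand beside 24.2 percent of all genes called higher and 16.2 percent called lower. Of 16 duct epithelium genes 6 were higher and 2 lower (37.5 and 12.5 percent). Among them *Cldn6* rose by 0.65 and *Epcam* fell by 0.90 (adjusted p = 0.00571 and 0.00392 from limma). Of 13 ganglion neuron genes 1 was higher and 6 were lower, with means of 8.26 and 8.27 in mutants, against 8.70 and 8.83 in wild type, and *Nefl* and *Gap43* fell by 1.63 and 1.19 (adjusted p = 0.00244 and 0.00329 from limma). Without mutant replicate 2, 3 ganglion genes were lower, and 1 duct gene was higher and 1 lower. Of 10 skeletal muscle genes 7 were higher and 0 lower, with means of 6.68 and 7.01 in mutants, against 6.14 and 6.38 in wild type, and *Myh3* and *Myod1* rose by 1.55 and 0.69 (adjusted p = 0.0095 and 0.0244 from limma). The *Myod1* call ended without mutant replicate 2 (0.0979) and without wild-type replicate 2 (0.0701), and the 7 muscle genes became 3 after median scaling, 1 without either of those arrays and 4 without either of the others. Erythroid genes were higher in 4 and lower in 1 of 6, with *Hba-x* higher by 1.08 and *Alas2* at -0.88 (adjusted p = 0.0159 and 0.0122 from limma). The *Hba-x* call ended without mutant replicate 1 (0.0745) or 2 (0.0551), where 0 erythroid genes were higher, and 2 were higher without either wild-type array or after either rescaling. Mesenchyme and cartilage genes were higher in 4 and lower in 2 of 9, with *Col1a1* higher by 1.26 and *Twist1* at -0.70 (adjusted p = 0.0089 and 0.00907 from limma). The *Twist1* call ended without mutant replicate 2 (0.0578), and 1 gene was higher and 1 lower without either mutant array. Median scaling or leaving out wild-type replicate 3 left 2 higher. Tissue makeup itself was not measured, and any part it had in the values of the 5 factors was not tested.

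As a description of pattern, the 4 values of each factor were centred on their own mean and set against those of every other gene by Euclidean distance, with the same 4 arrays shared by all genes. *Atoh1* and *Gfi1* were the pair of factors nearest to each other (distance 0.057), followed by *Pou4f3* and *Gfi1* (0.13), and *Lhx3* and *Barhl1* were farthest apart (0.44). Outside the 5 factors, the genes nearest to *Atoh1* were *Hpse*, *Tmem218* and *Csta1* (0.011 to 0.013), and those nearest to *Pou4f3* were *Renbp*, *Ctsf* and *Gadd45b* (0.022 to 0.050). *Csf1*, *Musk* and *Ogfod1* lay nearest to *Gfi1* (0.014 to 0.025), *Irak1*, the *Mir539* locus and *Aldh18a1* to *Lhx3* (0.0095 to 0.016), and *S100a4*, *Gm6999* and *Tmie* to *Barhl1* (0.013 to 0.015). With 4 arrays and 19938 genes, close neighbors are found for any pattern.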

How the data were processed

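RNA of E15 whole cochleas, 2 *Meis2* mutant and 2 wild-type samples, was hybridized to Affymetrix Mouse Gene 1.0 ST arrays. The authors deposited log2 signals from RMA (background correction, normalization within and between arrays, 1 signal per probe set), and RMA and the build mm8 are named in the processing notes of the submitters. Scanner files were not used here, so these steps were not repeated and no detection p was at hand. RMA compresses small differences between dim probe sets.

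All 35556 probe sets were fitted with limma 3.58.1 in R 4.3.3 (lmFit, eBayes), with no covariate or filter. Probe sets were named by the platform's annotation (21789 with 1 symbol, 1621 with several, 12146 not named here), of which 21698 matched a RefSeq record. For the lists, each gene was read from its brightest probe set, by the mean of the 4 arrays. List genes without a single-symbol probe set were not analysed here. Named were the 5 factors, their paralogs, up to 4 genes per related list and 2 per list of other cell types with the smallest p, and the 3 nearest genes in pattern.

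The methods name significance analysis of microarrays (SAM) with a false discovery rate. With 4 arrays it has only 6 relabelings, so it was run as an alternative. The other alternatives were trended and robust priors, scaling to the median, quantile normalization applied again, leaving out probe sets under the median mean signal of 6.69, single-symbol probe sets only, array weights, the mean of a gene's probe sets and leaving out each array. The code was tested on simulated data. The members and lists were chosen with earlier results of these data known.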

Additional observations from a re-analysis of the deposited data

How the results depend on the processing

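With a filter on dim probe sets *Lhx3* and *Barhl1* were not tested, and 0 of the 3 factors left were called. SAM placed *Atoh1* (0.27), *Gfi1* (0.23), *Pou4f3* (0.19) and *Lhx3* past its threshold, 4 of 5 factors, but it also called 25446 of 35556 probe sets, against 13268 by limma. It called 22 effector genes higher, 10 other hair cell factors higher and 3 lower, and 8 prosensory genes higher. After repeated quantile normalization *Lhx3* (0.31) was no longer called, which left 0 factors, *Barhl1* turned to -0.049, and 6 effector genes were higher. After median scaling *Barhl1* turned to -0.022, 4 effector genes were higher and 3 other hair cell factors were lower. That last count was 2 with single-symbol probe sets only and with the mean of a gene's probe sets.

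Without single arrays, where the genotype left with 1 array is assumed to vary like the other, differences ranged from 0.13 to 0.41 for *Atoh1* (adjusted p = 0.0482 from limma without wild-type replicate 3, and up to 0.382), from -0.034 to 0.41 for *Pou4f3*, from 0.085 to 0.38 for *Gfi1*, from 0.34 to 0.51 for *Lhx3* and from -0.025 to 0.15 for *Barhl1*. Factors called higher ranged from 0 to 1, and 0 were called lower throughout. In these runs 4611 to 10895 probe sets were called. Other hair cell factors numbered 2 to 5 higher and 0 to 2 lower, prosensory genes 1 to 4 higher and 2 to 4 lower, Notch pathway genes 1 to 8 higher and 1 to 5 lower, and effector genes 2 to 6 higher and 2 to 8 lower. Of the 13, 13, 13, 12 and 12 alternatives that gave a value for *Atoh1*, *Pou4f3*, *Gfi1*, *Lhx3* and *Barhl1*, 11, 11, 12, 7 and 9 kept the direction and the side of the threshold. No paired analysis was possible because the genotypes share fewer than 2 replicate numbers.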
